A study of Bos taurus with 18 samples.

Results

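The LH response difference between theca and antral granulosa asks whether the preovulatory surge of luteinising hormone (LH) changes a transcript by the same factor in both cell populations of the same bovine follicle. It was measured on 12 of the 18 arrays of the series, all those of theca and of antral granulosa, and over all 24016 probe sets left of 24128 once the Affymetrix controls were set aside. The 4 groups were theca after LH and antral granulosa after LH, both from cows A, B and C at 22 h after GnRH, which was given to induce the surge, and theca before LH and antral granulosa before LH, both from cows D, F and G. Each cow gave the single dominant follicle, so a group holds 3 cows, and no cow was sampled at both times. Antral granulosa means the granulosa cells aspirated with the follicular fluid. The other 6 arrays held membrane-associated granulosa of the same follicles and served to estimate the spread. For each cow the level in theca minus the level in antral granulosa was taken, and the LH response difference is the mean of this within-cow value after LH less its mean before LH. A positive value means that the transcript moved up more, or down less, in theca than in antral granulosa. Values are log2 signals, on which 1 unit is a 2-fold change. Errors are standard errors of the fit, and a gene or probe set is called at an adjusted p of 0.05 from limma with the Benjamini-Hochberg correction over all probe sets.

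The follicle wall has an outer theca, which holds blood vessels, fibroblasts and muscle cells and makes androgen, and an inner granulosa, which has no vessels and turns that androgen into oestradiol. A basement membrane lies between them. The LH surge ends oestradiol production, sets off ovulation and starts the change of both layers into the corpus luteum, during which granulosa cells leave the cell cycle.

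Levels ran from 2.29 to 14.90 with array medians of 5.74 to 5.86, with correlations of 0.97 to 0.99 within groups. The files hold no detection calls, so the 8006 probe sets with the lowest means, those below 4.62, were taken as dim. Where a group lay below 4.62 on all its arrays, the difference is also given with that group set to 4.62 ("at the limit"), which is a bound on it only where the groups so set move it one way. Markers of both cell types were checked on the arrays. INSL3, the hormone of theca cells, averaged 14.29 in theca after LH and 14.78 in theca before LH, and 10.20 in antral granulosa after LH and 10.25 in antral granulosa before LH. Markers of vessels marked the theca: PECAM1 averaged 9.42 and 9.44 in theca after and before LH, against 5.06 and 4.92 in antral granulosa. CYP19A1, the aromatase of granulosa cells, read 10.85, 11.82 and 8.21 on the theca arrays before LH (cows D, F and G), against 11.97, 13.02 and 13.18 on the antral arrays of the same cows. The theca arrays before LH thus carried a transcript that defines granulosa, at a level that differed between the cows. FSHR, the receptor for follicle-stimulating hormone, read 5.61, 4.996 and 4.02 there, while FOXL2 averaged 4.20 and 4.27 in theca after and before LH and 4.33 and 4.55 in antral granulosa after and before LH, all below the dim limit. In these bulk samples, fewer cells of a type and less RNA per cell cannot be told apart.

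The LH response differed between theca and antral granulosa for 2698 probe sets, which is 11.2% of those tested, 1354 of them higher and 1344 lower in theca. Read as genes, each from its brightest probe set, 736 of 9155 were higher (8.04%) and 639 lower (6.98%). The change was 2-fold or more for 488 of the higher and 439 of the lower genes. For 1363 of the 1375 called genes the 3 within-cow differences after LH did not overlap the 3 before LH, as was the case for 32.3% of all genes. The LH effect on its own was called for 3.92% of probe sets in theca (941) and for 22.4% in antral granulosa (5391). Without cow A 439 probe sets were called for the LH effect in theca, without cow D 465 and without cow G 571. Without cow B, 823 probe sets had a higher and 930 a lower LH response difference, and without cow A 867 were higher.

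Most of these differences lay in the response of antral granulosa. Among the 736 genes with a higher difference, 455 (61.8%) were 2-fold or more lower after LH in antral granulosa while theca stayed within 2-fold, and 30 (4.08%) were 2-fold or more higher in theca alone. Their median LH effect was -0.18 in theca and -1.33 in antral granulosa. Among the 639 genes with a lower difference, 330 (51.6%) were 2-fold or more higher after LH in antral granulosa alone and 39 (6.10%) were 2-fold or more lower in theca alone, with median LH effects of 0.16 in theca and 1.44 in antral granulosa. Over all genes, 12.2% moved 2-fold or more in antral granulosa alone and 1.92% in theca alone. Both populations moved 2-fold or more the same way for 40 of the higher and 96 of the lower genes, and in opposite directions for 6 and 3. Neither population moved 2-fold for 205 (27.9%) of the higher and 171 (26.8%) of the lower genes, against 82.2% of all genes. These classes count sizes of change and carry no test of their own.

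**Figure D1:**
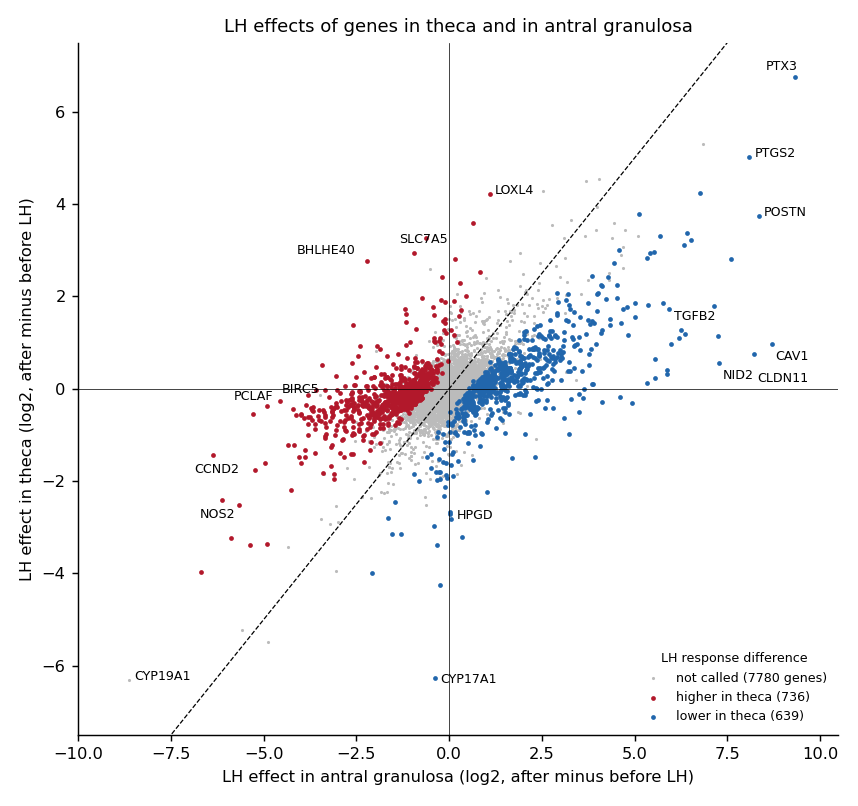
Each point is a gene, with its LH effect in antral granulosa on the x axis and in theca on the y axis (both log2, after minus before LH, 3 cows per group), and the dashed line marks equal effects. The 736 genes with a called higher LH response difference in theca (red) and the 639 with a lower one (blue) spread mainly along the x axis, and CYP17A1 is among the few blue points far below 0 in theca.

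The gap between the populations was called for 36.3% of probe sets after LH and for 37.1% before LH, so the number of probe sets that set theca apart from antral granulosa was much the same at both times. Among the 639 genes with a lower difference, theca was higher than antral granulosa for 221 after LH and for 544 before LH. Among the 736 with a higher difference, theca was higher for 601 after LH and for 117 before LH. The direction of both shifts was fixed by the choice of the genes, whose gap had to fall or to rise after LH. Only the counts themselves are a description of the data. The gap became smaller after LH for 376 (58.8%) of the lower and 355 (48.2%) of the higher genes, against 50.6% of all genes. The direction of the gap turned round for 323 of the lower and 484 of the higher genes, and for 2443 of all 9155 genes. Such turns too are favoured by the choice of genes with a large change of the gap.

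Most of the largest lower differences were those of genes called higher after LH in antral granulosa, with CAV1, CLDN11 and NID2 first. CAV1, the coat protein of caveolae, read 12.01, 11.71 and 11.28 in theca after LH (cows A, B and C), against 10.32, 11.10 and 10.66 in theca before LH (cows D, F and G). In antral granulosa it read 12.71, 12.73 and 12.59 after LH, against 3.95, 3.94 and 4.02 before LH. The 3 antral arrays before LH stood alone below the dim limit, while the other 9 arrays of the comparison lay above 10. The LH response difference of CAV1 was -7.73 ± 0.28 (adjusted p = 4.77e-08), and -7.08 with antral granulosa before LH set to 4.62. CLDN11, a protein of tight junctions, read 11.35, 11.04 and 10.64 in theca after LH, against 9.46, 11.14 and 10.20 in theca before LH. In antral granulosa CLDN11 read 11.18, 12.60 and 11.57 after LH, against 3.29, 4.07 and 3.35 before LH. Its groups overlapped in theca and were far apart in antral granulosa, and the difference was -7.47 ± 0.57 (adjusted p = 1.37e-05), or -6.41 at the limit. A dimmer probe set of CLDN11 read -1.32 (adjusted p = 0.174), so the 2 probe sets disagree in the call.

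NID2, which links laminin and collagen IV in basement membranes, had a difference of -6.71 ± 0.71 (adjusted p = 8.81e-05). Its levels were 12.64, 12.68 and 13.30 in theca after LH, against 12.49, 11.87 and 12.56 in theca before LH, and 11.32, 11.30 and 12.84 in antral granulosa after LH, against 4.55, 5.04 and 4.05 in antral granulosa before LH. Theca was thus bright on all 6 arrays, and its within-cow lead over antral granulosa was 1.05 on average after LH against 7.76 before LH. DKK3, a secreted protein of the dickkopf family, had a difference of -6.10 ± 0.37 (adjusted p = 2.93e-06), or -5.37 at the limit. The within-cow gap of DKK3 varied in sign after LH (-0.63, 0.80 and -0.12), and theca led by 5.69 to 6.61 before LH.

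Another 6 genes belonged to the largest lower differences in which antral granulosa rose: TCIM (-5.56 ± 0.52), the G protein subunit GNG2 (-5.49 ± 0.44), the membrane protein TM4SF1 (-5.31 ± 0.57), the septin SEPTIN4 (-5.23 ± 0.34), LMO7, a LIM domain protein of cell junctions (-5.22 ± 0.35), and the growth factor TGFB2 (-5.17 ± 0.43). Their adjusted p was at most 9.93e-05. Their LH effects in theca had adjusted p values of 0.291 (TGFB2) and above. GNG2, SEPTIN4, LMO7 and TGFB2 were lower in theca than in antral granulosa in all 3 cows after LH and higher in all 3 cows before LH. TCIM, TM4SF1, LMO7 and TGFB2 lay below the dim limit on all 3 antral arrays before LH, and with these at the limit the differences were -4.40, -4.77, -4.85 and -4.77.

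CYP17A1, the enzyme that makes androgen and a theca marker, was unlike the genes above, since its change lay in theca. It read 5.28, 5.57 and 5.61 in theca after LH, against 12.67, 10.48 and 12.11 in theca before LH. In antral granulosa it read 5.65, 5.06 and 4.78 after LH, against 5.81, 5.40 and 5.42 before LH. The theca groups were well apart, with theca after LH at the level of antral granulosa. The LH effect was -6.27 ± 0.93 in theca (adjusted p = 0.00095) and -0.38 ± 0.93 in antral granulosa (adjusted p = 0.833), and the difference was -5.88 ± 0.93 (adjusted p = 0.00122). HPGD, which inactivates prostaglandins, was similar: its LH effect was -2.82 ± 0.37 in theca (adjusted p = 0.000372) and its antral arrays were all below the dim limit, for a difference of -2.87 ± 0.47 (adjusted p = 0.00160), or -2.82 at the limit.

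**Figure D2:**
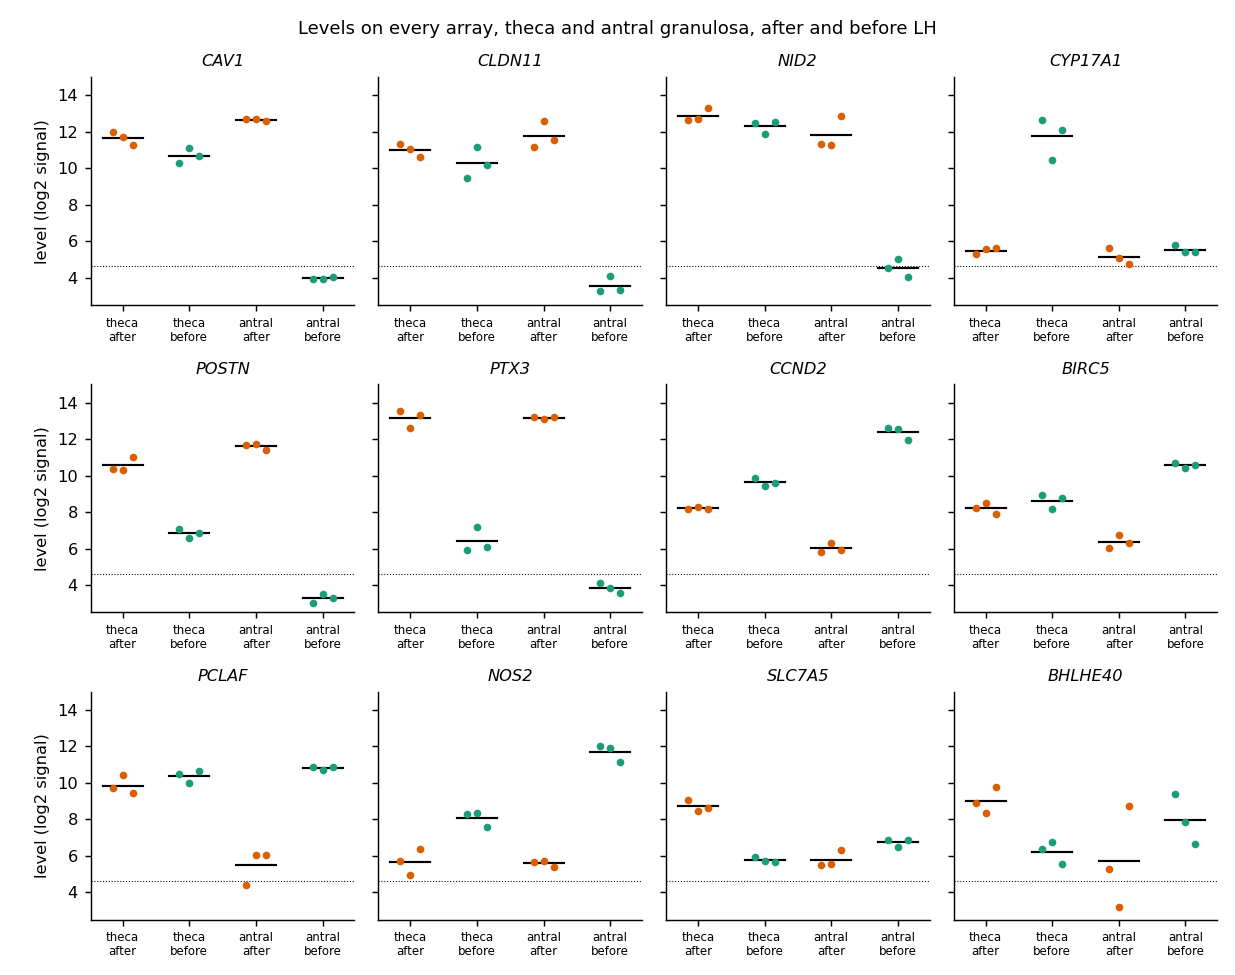
Levels (log2 signal) of 12 genes on every array: points are cows, black lines are means of 3, and the dotted line is the dim limit of 4.62. CAV1, CLDN11 and NID2 were low only on the antral arrays before LH, CYP17A1 was high only on the theca arrays before LH, and SLC7A5 was highest on the theca arrays after LH.

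On the other side, several of the largest higher differences were those of genes that fell after LH in antral granulosa. CCND2, the D-type cyclin through which follicle-stimulating hormone drives granulosa division in rodents, read 8.18, 8.26 and 8.19 in theca after LH, against 9.89, 9.42 and 9.60 in theca before LH. In antral granulosa CCND2 read 5.83, 6.29 and 5.91 after LH, against 12.61, 12.56 and 11.95 before LH. It fell in both populations without overlap, with LH effects of -1.43 ± 0.26 in theca and -6.36 ± 0.26 in antral granulosa. The difference was 4.93 ± 0.30 (adjusted p = 2.93e-06), and theca went on to exceed antral granulosa in all 3 cows after LH although it was below it in all 3 before LH. PCLAF, a partner of the replication clamp PCNA, read 9.70, 10.41 and 9.41 in theca after LH, against 10.49, 9.998 and 10.67 in theca before LH. In antral granulosa PCLAF read 4.40, 6.06 and 6.03 after LH, against 10.85, 10.68 and 10.87 before LH. Only antral granulosa after LH stood apart, and the difference was 4.76 ± 0.50 (adjusted p = 8.81e-05).

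SRGN, the core protein of serglycin proteoglycans, had a difference of 4.54 ± 0.42 (adjusted p = 4.02e-05) with an LH effect of -4.90 ± 0.45 in antral granulosa. GUCA1A, an activator of guanylate cyclase known from the retina, had a difference of 4.30 ± 0.61 (adjusted p = 0.000613), RASGEF1B, a guanine nucleotide exchange factor, one of 3.94 ± 0.52 (adjusted p = 0.000373), and MOB3B, of the MOB kinase activator family, one of 3.66 ± 0.37 (adjusted p = 6.47e-05). MOB3B lay below the dim limit on the antral arrays after LH, and its difference was at least 3.19. NOS2, the inducible nitric oxide synthase, fell in both, with an LH effect of -6.12 ± 0.39 in antral granulosa, for a difference of 3.72 ± 0.56 (adjusted p = 0.000925). After LH it averaged 5.67 in theca and 5.58 in antral granulosa, not far above the dim limit.

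The remaining large higher differences had a positive LH effect in theca, called for SLC7A5 and not for the others. SLC7A5, a transporter of large neutral amino acids, read 9.04, 8.47 and 8.62 in theca after LH, against 5.93, 5.72 and 5.64 in theca before LH. In antral granulosa SLC7A5 read 5.50, 5.56 and 6.32 after LH, against 6.86, 6.51 and 6.87 before LH. The groups did not overlap in either population and moved in opposite directions: the LH effect was 2.95 ± 0.29 in theca (adjusted p = 3.07e-05) and -0.96 ± 0.29 in antral granulosa (adjusted p = 0.0263), and the difference was 3.91 ± 0.33 (adjusted p = 2.26e-05). BHLHE40, a transcriptional repressor of the circadian clock, had the highest difference of all genes at 4.99 ± 0.90 (adjusted p = 0.00295). Its levels were 8.89, 8.33 and 9.79 in theca after LH, against 6.39, 6.78 and 5.52 in theca before LH, and 5.28, 3.22 and 8.71 in antral granulosa after LH, against 9.38, 7.83 and 6.64 in antral granulosa before LH. The theca groups did not overlap, while the antral groups did, and cow C was far above cow B in antral granulosa after LH. Neither LH effect was called: it was 2.77 ± 1.25 in theca (adjusted p = 0.301) and -2.21 ± 1.25 in antral granulosa (adjusted p = 0.247). The fit shares its error between the populations. The standard deviations were 0.74 and 0.64 in theca after and before LH. After LH they were 2.77 in antral and 2.60 in membrane-associated granulosa. The missing call in theca therefore does not show that theca lacked a rise. ADAMTS4, an aggrecanase, had a difference of 3.97 ± 0.75 (adjusted p = 0.00387). Theca lay above antral granulosa by 7.27, 5.33 and 3.55 within cows A, B and C after LH, against 0.67, 2.21 and 1.34 within cows D, F and G before LH. The LH effect of ADAMTS4 was called in antral granulosa alone (-2.59 ± 0.82, adjusted p = 0.0330). In theca it was 1.38 ± 0.82 (adjusted p = 0.481), and the theca groups overlapped. SPP1, which encodes osteopontin, had a difference of 3.89 ± 1.15 (adjusted p = 0.0482). Its call ended without cow A (adjusted p = 0.178), B (0.119), C (0.0941), D (0.0585) or G (0.154).

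**Figure D3:**
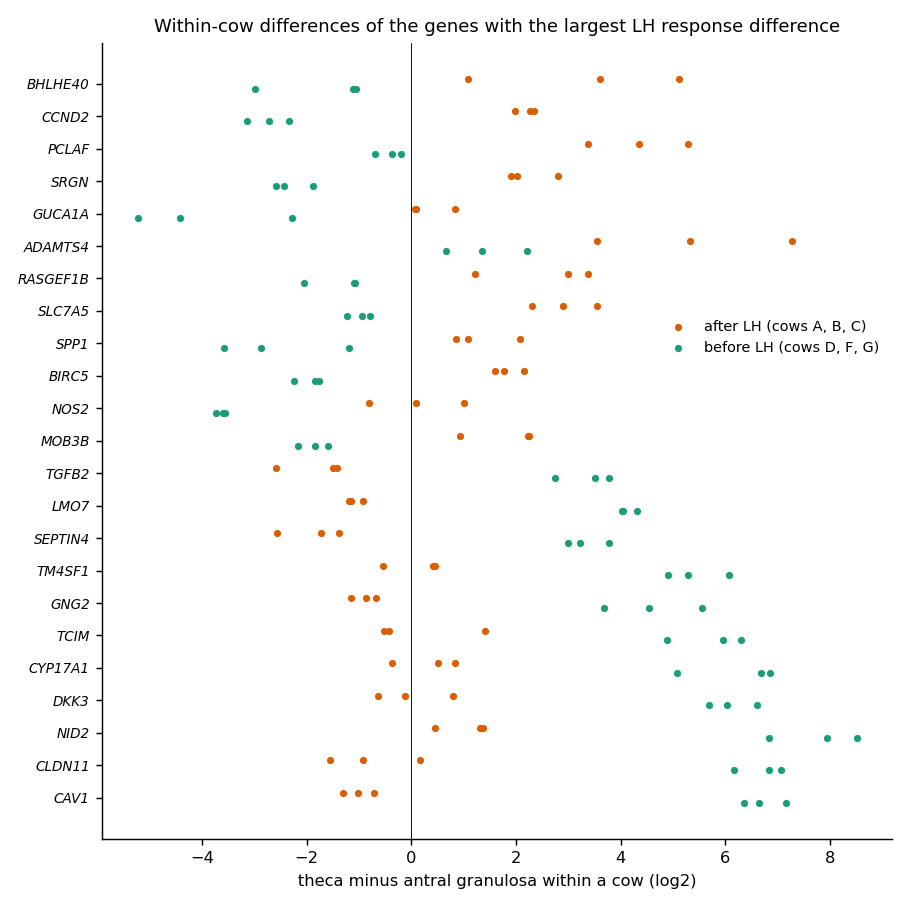
Theca minus antral granulosa within each cow (log2) for 23 of the 24 genes with the largest differences, after LH (orange) and before LH (green). The 3 cows after LH lie apart from the 3 before LH for each gene, as the choice of these genes required, with CAV1 near -1 after LH and between 6.36 and 7.15 before LH.

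Genes of cell division formed the most uniform group. Of 27 measured genes of the cell cycle and mitosis 25 were called higher and none lower (0 also at an unadjusted p under 0.05), against 8.04% and 6.98% of all genes, with a median difference of 2.58 against 0.02 over all genes. Their median LH effect was -0.45 in theca and -3.16 in antral granulosa. After LH the list was higher in theca than in antral granulosa (median gap 1.53), and before LH it was lower (median gap -0.98). BIRC5, or survivin, which acts in chromosome segregation, had the largest difference of the list. It read 8.20, 8.52 and 7.87 in theca after LH, against 8.94, 8.19 and 8.77 in theca before LH, and 6.05, 6.74 and 6.28 in antral granulosa after LH, against 10.69, 10.43 and 10.60 in antral granulosa before LH. The theca groups overlapped while the antral groups did not, and the difference was 3.78 ± 0.27 (adjusted p = 7.44e-06).

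UBE2C, the ubiquitin-conjugating enzyme of the anaphase-promoting complex, read 9.09, 9.96 and 8.87 in theca after LH, against 9.80, 9.58 and 9.57 in theca before LH. In antral granulosa UBE2C read 7.46, 7.72 and 7.15 after LH, against 11.60, 10.99 and 11.29 before LH. Its difference was 3.51 ± 0.27 (adjusted p = 1.30e-05), again with overlap in theca alone. The checkpoint kinase BUB1 (3.21 ± 0.28, adjusted p = 2.95e-05) and the centromere protein CENPF (2.55 ± 0.22, adjusted p = 2.74e-05) were similar, although a dimmer probe set of CENPF read 1.09 (adjusted p = 0.398). The mitotic cyclins CCNA2, CCNB1 and CCNB2 had differences of 3.26 ± 0.52, 2.97 ± 0.52 and 3.28 ± 0.33, and their kinase partner CDK1 one of 2.67 ± 0.30. CCNE1 and CENPA were not called and read 0.29 ± 0.21 each. No member of the list had an LH effect in theca called by limma (5 had an unadjusted p under 0.05, and the smallest adjusted p was that of KIF23, 0.0896), whereas 25 had one in antral granulosa. With 1 cow left out, 24 or 25 members were called.

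Of 28 measured genes of DNA replication 21 were called higher and none lower (0 also at an unadjusted p under 0.05), against 8.04% and 6.98% of all genes. The median difference was 1.13, with median LH effects of -0.22 in theca and -1.33 in antral granulosa. With 1 cow left out 16 to 21 were called. After PCLAF the largest was TK1, the cytosolic thymidine kinase, at 3.46 ± 0.27 (adjusted p = 1.37e-05). TK1 read 7.37, 7.85 and 7.32 in theca after LH, against 8.13, 7.94 and 8.13 in theca before LH, and 6.35, 6.52 and 6.12 in antral granulosa after LH, against 10.41, 10.22 and 10.40 in antral granulosa before LH. Theca was thus above antral granulosa after LH and below it before LH. The helicase subunit MCM3 (2.31 ± 0.26) and the clamp loader subunit RFC4 (1.94 ± 0.23) were also called, and a dimmer probe set of MCM3 read -0.10 (adjusted p = 0.877). ORC6 (-0.10 ± 0.21), MCM7 (0.15 ± 0.21), POLA1, RRM1, CDC45, GINS3 and UHRF1 were not called.

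Among 13 genes that govern entry into the cell cycle, CCND2, CDKN2C (1.79 ± 0.22), the retinoblastoma gene RB1 (1.04 ± 0.17) and CDK4 (0.67 ± 0.19) were called higher. The 1 called lower was CDKN1C, an inhibitor of cyclin-dependent kinases, and the shares over all genes were 8.04% higher and 6.98% lower. CDKN1C read 8.63, 8.86 and 12.14 in theca after LH, against 9.92, 10.40 and 9.82 in theca before LH, and 10.13, 9.33 and 11.25 in antral granulosa after LH, against 6.21, 5.13 and 5.54 in antral granulosa before LH. Cow C was the highest after LH in both populations, and the antral groups did not overlap. The difference was -4.78 ± 0.58 (adjusted p = 0.00021), while 2 dimmer probe sets of CDKN1C read -0.90 (adjusted p = 0.239) and -0.17 (adjusted p = 0.805). CCND1 (-0.08 ± 0.16), CDKN1A (0.01 ± 0.20) and MYC (0.04 ± 0.85) were not called.

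**Figure D4:**
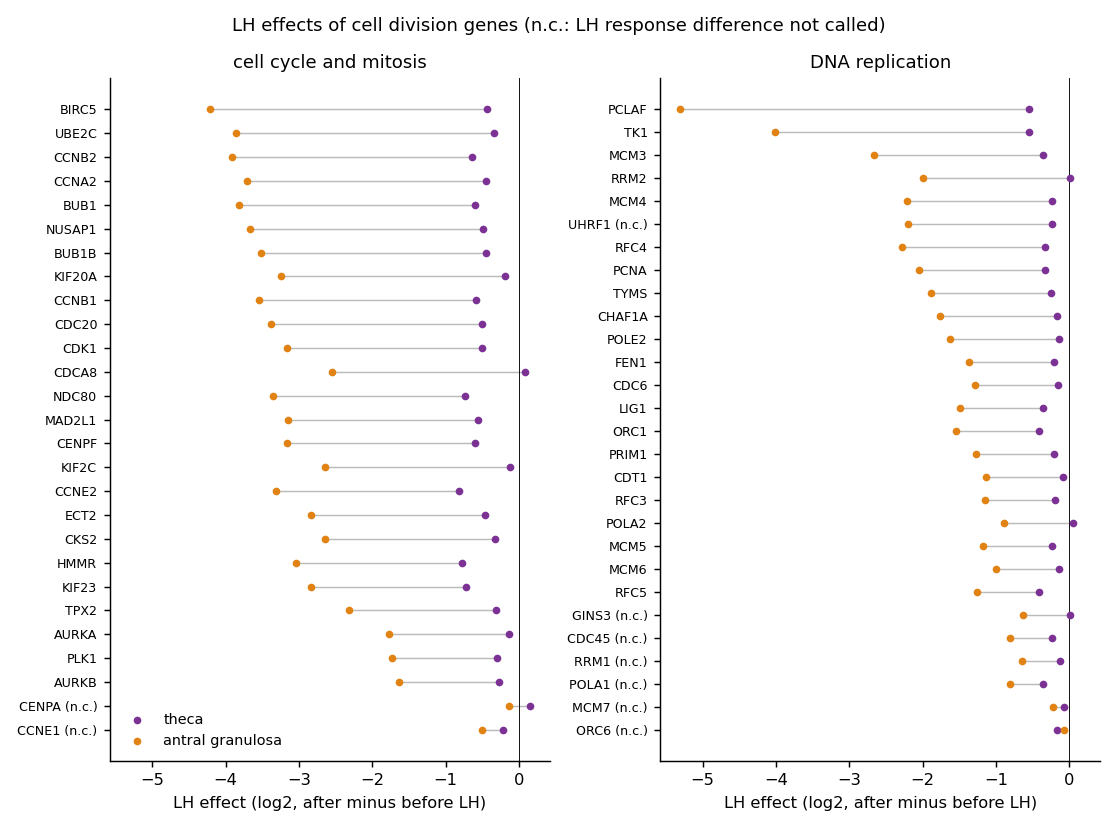
LH effects (log2, after minus before LH) of the measured genes of cell cycle and mitosis (left, 27 genes) and of DNA replication (right, 28 genes) in theca (purple) and antral granulosa (orange), joined by a line whose length is the LH response difference. The theca points lie near 0 and nearly all antral points below them, with BIRC5 at -0.44 in theca and -4.22 in antral granulosa.

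The extracellular matrix list held 6 genes called lower and 1 higher among 30 measured, with a median difference of -0.84 and 4 to 7 called lower when 1 cow was left out. The shares over all genes were 6.98% lower and 8.04% higher. Theca exceeded antral granulosa in this list by a median of 3.90 after LH and 4.53 before LH. POSTN, a matrix protein of healing and growing connective tissue, read 10.36, 10.29 and 11.04 in theca after LH, against 7.07, 6.55 and 6.86 in theca before LH. In antral granulosa POSTN read 11.66, 11.74 and 11.42 after LH, against 3.01, 3.52 and 3.26 before LH. It rose in both without overlap, and the difference was -4.61 ± 0.54 (adjusted p = 0.000172), or -3.25 with antral granulosa before LH at the limit. TNC, or tenascin C, had a difference of -4.19 ± 0.51, or -3.74 at the limit, with a dimmer probe set at -0.19 (adjusted p = 0.7005), and FN1, or fibronectin, one of -3.24 ± 0.44. FN1 read 13.26, 13.32 and 12.79 in theca after LH, against 12.03, 12.88 and 12.91 in theca before LH, and 10.11, 10.43 and 10.14 in antral granulosa after LH, against 6.29, 6.87 and 6.25 in antral granulosa before LH. FN1 thus rose by 3.76 ± 0.30 in antral granulosa and stayed below theca at both times.

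Of the fibrillar collagens, COL1A2 was just called (-2.55 ± 0.76, adjusted p = 0.0496) and COL3A1 was not (-3.24 ± 0.97, adjusted p = 0.0503, or -2.53 at the limit). COL1A2 read 13.31, 13.20 and 12.92 in theca after LH, against 12.71, 13.07 and 13.27 in theca before LH, and 6.46, 6.44 and 9.32 in antral granulosa after LH, against 4.55, 5.08 and 4.57 in antral granulosa before LH. The antral array of cow C was the highest, and without cow C the difference was -1.48 (adjusted p = 0.134). The call also ended without each of the other cows (adjusted p = 0.0529 without A, 0.0598 without B, 0.114 without D, 0.0661 without F and 0.141 without G). These collagens are markers of fibroblasts, of which theca has many. Of 15 measured fibroblast markers, 1 was called lower (COL1A2) and 1 higher (TCF21), with a median difference of -0.51. Both counts are near the shares over all genes (6.98% lower, 8.04% higher). A dimmer probe set of COL1A2 read -3.30 (adjusted p = 0.0296). Without cow C or cow G no marker of this list was called lower. None was called higher without cow A, B, D or G. The summed level of the fibroblast list (log2 of the sum of linear signals) was 15.35 to 15.71 in theca after LH and 15.07 to 15.53 in theca before LH, and 11.40 to 12.28 in antral granulosa after LH and 10.25 to 10.49 in antral granulosa before LH. Fibroblast transcripts were therefore higher on the antral arrays after LH than before, and their part in the lower differences of matrix genes was not tested. LOXL4, a lysyl oxidase that crosslinks collagen, went the other way with 3.14 ± 0.63 (adjusted p = 0.00603): it read 10.86, 11.53 and 10.17 in theca after LH, against 5.85, 7.32 and 6.69 in theca before LH, and stayed at 4.05 to 6.49 in antral granulosa.

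Of 11 basement membrane genes, NID2, LAMB1 (-1.85 ± 0.45, adjusted p = 0.0169) and COL4A1 (-0.82 ± 0.21, adjusted p = 0.0217) were called lower, and LAMB2 (1.16 ± 0.26) and HSPG2 (1.16 ± 0.32) higher. Over all genes the shares were 6.98% lower and 8.04% higher. Calls in the basement membrane list were fragile other than for NID2. The count lower was 1 without cow B or cow G. The count higher was 1 without cow A or cow F and 0 without cow B or cow D, where LAMB2 read 1.07 (adjusted p = 0.0709) and 0.92 (adjusted p = 0.0540). LAMB1 also lost its call without cow C (-1.55, adjusted p = 0.0611), and COL4A1 without cow A (-0.88, adjusted p = 0.0557) or F (-0.80, adjusted p = 0.0622).

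Among 26 measured genes of the ovulatory cascade 8 were called lower and 1 higher (ADAMTS4), against 6.98% and 8.04% of all genes. The count lower was 7 or 8 with 1 cow left out, the count higher was 2 without cow C or cow G, and the median difference was -0.04. PTX3, a pentraxin needed for the expanded cumulus matrix, read 13.52, 12.62 and 13.34 in theca after LH, against 5.91, 7.20 and 6.10 in theca before LH. In antral granulosa PTX3 read 13.22, 13.11 and 13.18 after LH, against 4.11, 3.84 and 3.58 before LH. The populations were alike after LH and apart before, and the difference was -2.58 ± 0.34 (adjusted p = 0.000406), which shrinks to -1.79 with antral granulosa before LH at the limit. PTGS2, the inducible enzyme of prostaglandin synthesis, read 10.40, 9.98 and 7.61 in theca after LH, against 4.26, 4.34 and 4.33 in theca before LH, and 12.41, 12.31 and 11.47 in antral granulosa after LH, against 3.99, 4.13 and 3.78 in antral granulosa before LH. Both populations lay below the dim limit before LH, and the difference was -3.08 ± 0.37 (adjusted p = 0.000195), or -2.74 at the limit, with antral granulosa ahead in all 3 cows after LH.

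ADAMTS1, a protease of the ovulating follicle, read 11.88, 10.83 and 11.24 in theca after LH, against 10.15, 10.59 and 9.72 in theca before LH. In antral granulosa ADAMTS1 read 10.71, 10.02 and 10.21 after LH, against 5.96, 5.03 and 5.45 before LH. Theca held it at both times, and the difference was -3.67 ± 0.31 (adjusted p = 2.52e-05). A dimmer probe set of ADAMTS1 read 0.56 (adjusted p = 0.449). TIMP1, an inhibitor of metalloproteases, rose by 3.37 ± 0.42 in theca and by 6.41 ± 0.42 in antral granulosa (difference -3.04 ± 0.37, adjusted p = 0.000208). The peptide NTS (-3.30 ± 0.47, or -3.02 at the limit), the prostaglandin E synthase PTGES (-1.92 ± 0.44) and the plasminogen activators PLAU (-2.37 ± 0.49) and PLAT (-1.16 ± 0.28) make up the 8 with PTX3, PTGS2, ADAMTS1 and TIMP1. TNFAIP6, a hyaluronan-binding protein, rose by 3.27 ± 0.61 in theca and by 3.11 ± 0.61 in antral granulosa, a difference of 0.17 ± 0.60 (adjusted p = 0.921), though its antral array of cow A was near the brightest value of that array. VNN2, a pantetheinase, rose by 5.31 ± 0.77 in theca and by 6.86 ± 0.77 in antral granulosa, and its difference of -1.55 ± 0.66 was not called (adjusted p = 0.180) except without cow D (-2.38, adjusted p = 0.0142), and it was -0.75 (adjusted p = 0.542) without cow G. PGR, the progesterone receptor, stayed below the dim limit on all 12 arrays.

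Of 28 proteases and inhibitors, 7 were called lower and 2 higher, against 6.98% and 8.04% of all genes (the count higher is near its share). Beside those of the ovulatory list these were TIMP2 (-1.65 ± 0.22, adjusted p = 0.000411), TIMP4 (-1.0 ± 0.28) and the complement inhibitor SERPING1 (-2.00 ± 0.49) among the lower, and the collagen chaperone SERPINH1 (1.25 ± 0.20, adjusted p = 0.00122) among the higher. Without cow B 4 were called lower. Among 19 immediate early genes 4 were called lower and none higher (0 also at an unadjusted p under 0.05), against 6.98% and 8.04% of all genes. Those lower were FOS (-2.49 ± 0.49, adjusted p = 0.00542), the matrix-linked CCN2 (-2.28 ± 0.55), the phosphatase DUSP1 (-1.01 ± 0.28) and IER2 (-0.98 ± 0.20), which had a dimmer probe set at 0.03 (adjusted p = 0.965). FOS read 12.52, 11.16 and 11.10 in theca after LH, against 8.49, 9.30 and 8.47 in theca before LH, and 12.38, 12.12 and 12.28 in antral granulosa after LH, against 7.89, 6.62 and 6.27 in antral granulosa before LH. Both populations were well above their levels before LH in all cows. Without cow F or cow G 2 members were called: CCN2 read -2.23 (adjusted p = 0.0735) and -1.86 (adjusted p = 0.101), and DUSP1 -0.80 (adjusted p = 0.164) and -1.03 (adjusted p = 0.108). DUSP1 lost its call without cow A (-1.12, adjusted p = 0.0784) or C (-0.72, adjusted p = 0.101) too.

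Steroid synthesis showed no common direction, with 5 of 17 measured genes called lower and 2 higher (6.98% and 8.04% of all genes). The median difference was -0.41. Beside CYP17A1, the lower ones were FDX1 (-1.92 ± 0.30), the electron carrier to the mitochondrial steroid enzymes, HSD11B1 (-1.42 ± 0.37), which makes active glucocorticoid, TSPO (-1.41 ± 0.32), of the outer mitochondrial membrane, and the regulator NR5A1 (-0.90 ± 0.26). The higher ones were HSD17B1 and CYP11A1. HSD17B1, which makes oestradiol from oestrone, read 5.04, 5.23 and 5.06 in theca after LH, against 7.30, 7.76 and 7.81 in theca before LH. In antral granulosa HSD17B1 read 6.02, 5.75 and 5.04 after LH, against 11.40, 11.65 and 10.72 before LH. It fell in both without overlap and by more in antral granulosa (difference 3.14 ± 0.41, adjusted p = 0.000351). Both populations ended not far above the dim limit of 4.62. The mean gap of HSD17B1 was -0.49 after LH (not called, adjusted p = 0.207) against -3.64 before LH.

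CYP11A1, which takes the first step from cholesterol, read 10.77, 10.74 and 12.92 in theca after LH, against 13.18, 12.23 and 13.00 in theca before LH. In antral granulosa CYP11A1 read 9.16, 6.38 and 11.76 after LH, against 13.39, 12.48 and 13.12 before LH. Cow C was the highest after LH in both populations, and the difference was 2.57 ± 0.71 (adjusted p = 0.0353). It was not called without cow B (1.58, adjusted p = 0.113), D (2.56, adjusted p = 0.101), F (2.55, adjusted p = 0.113) or G (2.61, adjusted p = 0.109). STAR, which brings cholesterol into mitochondria, read 12.28, 11.82 and 12.29 in theca after LH, against 13.57, 12.95 and 13.15 in theca before LH, and 7.77, 5.41 and 11.32 in antral granulosa after LH, against 5.98, 5.001 and 6.51 in antral granulosa before LH. The antral arrays after LH spread widely, and the difference of -3.44 ± 1.13 was not called (adjusted p = 0.0739) except without cow B (-4.66, adjusted p = 0.0269), and without cow C it was -1.94 and not called. The count lower was 2 without cow A and 3 without cow F or G, and that without cow A included no call of TSPO (-1.32, adjusted p = 0.0532).

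CYP19A1 read 4.08, 3.92 and 3.91 in theca after LH, against 10.85, 11.82 and 8.21 in theca before LH, and 3.89, 4.49 and 3.89 in antral granulosa after LH, against 11.97, 13.02 and 13.18 in antral granulosa before LH. Both populations ended below the dim limit, and the difference was 2.31 ± 0.86 (adjusted p = 0.119), or 2.43 at the limit. The gap before LH was -1.12, -1.20 and -4.96 within cows D, F and G, and without cow G the difference was 1.05 (adjusted p = 0.292). A dimmer probe set of CYP19A1 was called (1.96, adjusted p = 0.0319). HSD3B1, which makes progesterone, did not pass (-0.09 ± 0.43, adjusted p = 0.942). In the 18 measured genes of cholesterol synthesis and uptake the median LH effect was -1.17 in theca and -1.26 in antral granulosa. The median difference there was -0.22, with 1 gene called, NPC1 of cholesterol export from lysosomes (0.84 ± 0.19, adjusted p = 0.0112), which was not called without cow A (adjusted p = 0.0522) or F (0.0596). Without cow C or cow F 1 gene of this list was called lower. The 1 gene of 18 called higher is not far from the share of 8.04% over all genes.

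Among 15 hormone receptors 4 were called higher and none lower (0 also at an unadjusted p under 0.05), against 8.04% and 6.98% of all genes. ESR2, oestrogen receptor beta, read 4.78, 4.68 and 4.76 in theca after LH, against 4.93, 4.66 and 4.50 in theca before LH, and 4.48, 4.76 and 4.56 in antral granulosa after LH, against 6.89, 5.95 and 6.36 in antral granulosa before LH. Only antral granulosa before LH stood clear of the dim limit (difference 1.85 ± 0.28, adjusted p = 0.000944). FSHR read 4.21, 4.69 and 3.87 in theca after LH, against 5.61, 4.996 and 4.02 in theca before LH, and 6.18, 6.43 and 5.80 in antral granulosa after LH, against 8.55, 8.23 and 7.69 in antral granulosa before LH. Its difference was 1.40 ± 0.39 (adjusted p = 0.0378), and the call ended without cow A (adjusted p = 0.111), B (0.114), C (0.0536) or F (0.0867). IGF1R (1.07 ± 0.30) was also called, with a dimmer probe set at 0.06 (adjusted p = 0.934). The call of OXTR (0.91 ± 0.25) rests on values too dim to read: 3 of its 4 groups lay below the limit, and the difference was 0.03 with these at the limit and 0.29 (adjusted p = 0.395) with every value under 4.62 raised to it. In this list 1 gene was called without cow A or cow C and 2 without cow B, F or G.

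LHCGR, the receptor for LH itself, read 5.56, 6.08 and 5.43 in theca after LH, against 9.28, 7.96 and 8.46 in theca before LH. In antral granulosa LHCGR read 5.14, 5.24 and 5.05 after LH, against 7.36, 8.19 and 8.83 before LH. It fell without overlap in both, with LH effects of -2.88 ± 0.35 in theca and -2.98 ± 0.35 in antral granulosa, and the difference was 0.11 ± 0.46 (adjusted p = 0.938). Without cow D it was 0.84 (adjusted p = 0.0341), as cow D held the highest theca and the lowest antral level before LH. The hormones INSL3 (difference -0.45 ± 0.74), INHA, INHBA, FST, AMH and OXT had no called difference, with OXT at -0.96 (adjusted p = 0.0279) without cow C. The theca arrays of cow B after LH and of cows F and G before LH were near the brightest value of the array for INSL3, which limits what its difference can show.

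Of 14 genes of the insulin-like growth factor system 3 were called higher and IGF2 lower, against 8.04% higher and 6.98% lower over all genes. The 1 called lower is near that share. IGF2 read 10.98, 10.86 and 10.55 in theca after LH, against 10.91, 10.80 and 11.53 in theca before LH, and 9.18, 8.89 and 10.63 in antral granulosa after LH, against 5.41, 5.29 and 5.62 in antral granulosa before LH. The theca groups overlapped and antral granulosa rose, for a difference of -4.41 ± 0.62 (adjusted p = 0.000538), while of the dimmer probe sets of IGF2 1 was called (-1.73, adjusted p = 0.00391) and another was not (0.22, adjusted p = 0.583). In the same system IGFBP4 (2.08 ± 0.50), IGFBP7 (0.80 ± 0.15) and IGF1R were called higher. Without cow D or cow G the count higher was 1, with IGFBP4 at 1.85 (adjusted p = 0.0770) and 1.98 (adjusted p = 0.0755) and IGF1R at 0.94 (adjusted p = 0.138) and 0.91 (adjusted p = 0.157). IGF1R also lost its call without cow A (1.04, adjusted p = 0.128) or C (0.86, adjusted p = 0.0925), and without cow C or D 2 genes were called lower.

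Of 28 genes of angiogenesis and hypoxia 3 were called lower and 4 higher, not far from the shares over all genes (6.98% lower, 8.04% higher). VEGFA, the growth factor that draws vessels into the forming corpus luteum, read 6.49, 6.71 and 9.69 in theca after LH, against 7.47, 7.07 and 7.53 in theca before LH. In antral granulosa VEGFA read 7.92, 7.47 and 9.25 after LH, against 12.34, 11.38 and 10.08 before LH. Cow C was again the highest after LH, the antral groups did not overlap, and the difference was 3.33 ± 0.55 (adjusted p = 0.00170). VEGFC (1.51 ± 0.28), VEGFB (0.95 ± 0.26) and the glycolytic enzyme PGK1 (0.63 ± 0.18) were called higher as well. FLT1, a receptor for VEGFA, read 6.80, 7.27 and 7.34 in theca after LH, against 7.31, 8.08 and 6.69 in theca before LH, and 6.80, 7.69 and 6.29 in antral granulosa after LH, against 3.66, 3.67 and 3.60 in antral granulosa before LH. Its difference was -3.51 ± 0.49 (adjusted p = 0.000529), or -2.52 at the limit. Other probe sets of FLT1, with means below the dim limit, read 0.31 (adjusted p = 0.403) and -0.10 (adjusted p = 0.804). FLT1 is known from endothelial cells. In antral granulosa the endothelial receptor TEK averaged 5.58 (5.31 to 5.87) after LH and 4.66 (4.43 to 4.84) before LH, without overlap, and its LH response difference was -0.77 (adjusted p = 0.391). The other defining markers averaged 5.06 after LH and 4.92 before LH (PECAM1), 5.06 and 5.30 (CLDN5), 4.16 and 4.73 (CDH5), 4.43 and 3.92 (EMCN), 4.08 and 3.85 (VWF), 3.69 and 3.63 (TIE1) and 3.45 and 3.22 (KDR) there. Near the dim limit, EMCN rose without overlap (4.18 to 4.71 after LH, 3.86 to 3.98 before LH). CDH5 fell without overlap (3.75 to 4.48 after LH, 4.52 to 4.87 before LH), so the markers differed in direction. The part of endothelial RNA in the FLT1 result was not tested. ANXA2 (-1.91 ± 0.30) and FGF1 (-0.93 ± 0.21) were the others called lower. Without cow B, D or F 2 members were called higher.

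Of 25 genes of inhibin, activin and BMP signalling, TGFB2, its receptor TGFBR2 (-2.04 ± 0.48) and the mediator SMAD3 (-1.48 ± 0.36) were called lower, and the BMP target genes ID2 (2.12 ± 0.30) and ID3 (1.63 ± 0.31) higher. The 2 called higher are near the share over all genes (8.04%, with 6.98% lower). Without cow A, F or G the count lower was 1, with TGFBR2 at -2.12 (adjusted p = 0.0566), -1.63 (adjusted p = 0.0688) and -1.81 (adjusted p = 0.0539), and TGFBR2 was at -1.97 (adjusted p = 0.0656) without cow B. Of 14 WNT genes, the receptor FZD1 (3.02 ± 0.35, adjusted p = 0.000161) and the transcription factors LEF1 (1.504 ± 0.26) and TCF7L2 (1.14 ± 0.27) were called higher and DKK3 lower. FZD1 read 9.09, 9.15 and 8.42 in theca after LH, against 9.46, 9.56 and 9.96 in theca before LH, and 5.62, 6.04 and 6.33 in antral granulosa after LH, against 9.48, 9.98 and 9.90 in antral granulosa before LH. Antral granulosa alone was thus low after LH, and the populations were close to each other before LH. LEF1 was unlike it in that theca rose (1.10 ± 0.22, adjusted p = 0.00919). Without cow A 2 genes were called lower. TCF7L2 was not called without cow A (0.89, adjusted p = 0.0901), C (1.11, adjusted p = 0.0571) or G (1.10, adjusted p = 0.0623).

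Among 34 inflammatory genes 4 were called lower, TNFRSF6B (-2.37 ± 0.34, adjusted p = 0.000591), a decoy receptor of death ligands, the chemokine CXCL12 (-1.94 ± 0.54), NFKBIA (-1.39 ± 0.35) and STAT3 (-1.05 ± 0.23). Counts of 4 lower and 2 higher are not far from the shares over all genes (6.98% and 8.04%). The 2 called higher were the interleukin 6 receptor IL6R (2.96 ± 0.34, adjusted p = 0.000137) and the dim SOCS3 (0.79 ± 0.20, or 0.46 at the limit). With every value under 4.62 raised to it, SOCS3 read 0.19 and was not called (adjusted p = 0.273). IL6R read 5.79, 5.03 and 5.84 in theca after LH, against 7.23, 6.82 and 6.28 in theca before LH, and 4.71, 4.95 and 5.56 in antral granulosa after LH, against 9.19, 9.23 and 9.33 in antral granulosa before LH. It fell in both without overlap and by more in antral granulosa. Both populations ended not far above the dim limit, with a mean gap of IL6R of 0.48 after LH (not called, adjusted p = 0.134) against -2.48 before LH. Without cow A, B or F 2 genes were called lower and 1 higher, without cow G 2 were lower, without cow D 1 was higher and without cow C 4 were higher. SOCS3 and STAT3 were among the calls that ended: SOCS3 read 0.73 (adjusted p = 0.110) without cow A, 0.72 (0.113) without B, 0.60 (0.0934) without D and 0.81 (0.0557) without F, and STAT3 read -0.95 (0.0542) without B and -0.90 (0.0540) without G. A dimmer probe set of STAT3 read 0.29 (adjusted p = 0.713).

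Of 22 genes of glutathione and redox metabolism 6 were called higher and none lower (2 were lower at an unadjusted p under 0.05). With 1 cow left out 4 or 5 were called higher. The shares over all genes, for this list and the next 2, were 8.04% higher and 6.98% lower. GCLC, which limits glutathione synthesis, read 3.94, 4.17 and 4.23 in theca after LH, against 8.17, 6.82 and 7.05 in theca before LH. In antral granulosa GCLC read 4.27, 4.34 and 5.17 after LH, against 11.10, 9.83 and 10.55 before LH. It fell to near the dim limit in both, and the difference was 2.66 ± 0.35 (adjusted p = 0.000373), or 3.17 with theca after LH at the limit. NOS2, the haem oxygenase HMOX1 (2.27 ± 0.52), the thioredoxin pair TXN (0.98 ± 0.19) and TXNRD1 (0.98 ± 0.20) and GPX4 (0.66 ± 0.19) were the others. Of 17 genes of junctions and caveolae CAV1, CLDN11 and CAV2 (-1.98 ± 0.26) were called lower and the gap junction protein GJA1 higher (1.00 ± 0.16, adjusted p = 0.00163), and of the dimmer probe sets of CAV2 1 was called (-2.39, adjusted p = 0.000425) and another was not (-0.62, adjusted p = 0.355). Among 16 heat shock genes HSPA5, the chaperone of the endoplasmic reticulum (1.04 ± 0.21), was called higher and HSP90AA1 (-0.66 ± 0.15) and CRYAB (-1.07 ± 0.29, or -0.64 at the limit) lower. With every value under 4.62 raised to it, CRYAB was not called (-0.64, adjusted p = 0.257). The count lower was 0 without cow A and 1 without cow B, D or F, where CRYAB read -1.18, -0.86, -1.06 and -0.94 (adjusted p = 0.0716, 0.0914, 0.0937 and 0.104). HSP90AA1 read -0.65 (adjusted p = 0.0545) without cow A, and a dimmer probe set of it 0.17 (adjusted p = 0.951).

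**Figure D5:**
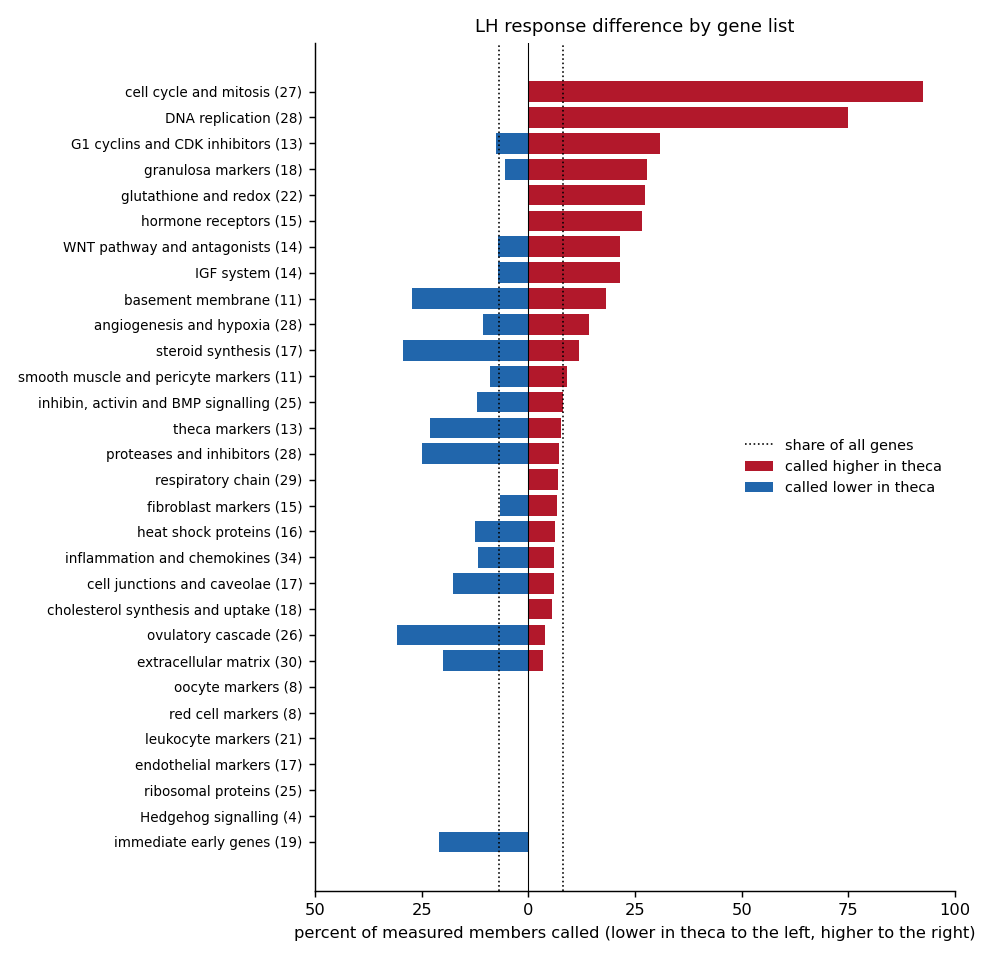
Share of the measured members of each gene list (number in brackets) called with a lower LH response difference in theca (blue, to the left) or a higher one (red, to the right), and the share of all genes in dotted lines (6.98% lower, 8.04% higher). The 2 lists of cell division stand out at the top with 25 of 27 and 21 of 28 members called higher, and 6 lists have no member called.

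Among the housekeeping lists, the respiratory chain had a share called higher near the 8.04% of all genes (6.98% were lower). Of 29 genes of the respiratory chain COX5A (0.95 ± 0.22) and NDUFS4 (1.03 ± 0.18) were called higher, and without cow A, B or D 1 was, COX5A reading 0.89, 0.93 and 0.84 (adjusted p = 0.0772, 0.0511 and 0.0671). None of 25 ribosomal protein genes was called by limma (3 had an unadjusted p under 0.05), and their differences lay between -0.09 and 0.46. None of 4 Hedgehog genes was called by limma (1 had an unadjusted p under 0.05, and 1 was called higher without cow G), of which IHH, the ligand that granulosa sends to theca, read 3.34 ± 1.19 (adjusted p = 0.101), or 2.32 at the limit.

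The marker lists of other cell types were read beside these results. None of 17 endothelial, 21 leukocyte, 8 red cell or 8 oocyte markers was called by limma (0, 2, 0 and 1 had an unadjusted p under 0.05), and the median differences were -0.02, 0.10, 0.02 and -0.17. The shares over all genes were 8.04% higher and 6.98% lower. In antral granulosa 7 endothelial markers averaged above the dim limit after LH and 9 before LH. For leukocyte markers these counts were 11 and 13. Of the red cell and of the oocyte markers 1 or 2 did so in each group. Such dim values limit what the lack of calls can show. The summed endothelial level was 12.02 to 12.58 in theca after LH and 11.92 to 12.69 in theca before LH, and 8.80 to 9.09 in antral granulosa after LH and 8.65 to 9.57 in antral granulosa before LH. The ranges after and before LH overlapped in both populations. The summed leukocyte level was 11.18 to 11.82 and 10.84 to 11.82 in theca after and before LH, and 9.89 to 10.31 and 9.51 to 10.76 in antral granulosa. Without cow C or cow D 1 oocyte marker was called lower. Haemoglobin markers were near the dim limit throughout (HBB averaged 4.43 and 4.69 in theca after and before LH).

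Of 18 granulosa markers 5 were called higher and 1 lower, against 8.04% and 6.98% of all genes, so the count lower is near its share. Those higher were HSD17B1, the sulfotransferase CHST8 (2.73 ± 0.38), the troponin TNNI3 (1.96 ± 0.27), FSHR and GJA1, and the lower one was GATM of creatine synthesis (-2.11 ± 0.52), and without cow A, B or C none was lower. CHST8 read 4.10, 4.003 and 4.24 in theca after LH, against 7.84, 8.74 and 7.66 in theca before LH, and 4.45, 4.48 and 4.50 in antral granulosa after LH, against 11.27, 11.26 and 10.99 in antral granulosa before LH. Both populations ended below the dim limit, with a difference of 3.10 at the limit, and theca before LH held CHST8 as it held CYP19A1. The summed granulosa level was 14.78 to 14.95 in theca after LH and 15.45 to 16.18 in theca before LH, and 15.40 to 15.73 in antral granulosa after LH and 17.06 to 17.11 in antral granulosa before LH. Granulosa transcripts were thus higher on the theca arrays before LH, and their part in the LH effects of theca and in the differences was not tested.

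Of 13 theca markers, CYP17A1, HPGD and the nuclear receptor NR2F1 (-1.57 ± 0.29) were called lower and the transcription factor TCF21 (2.76 ± 0.76) higher. The shares over all genes were 6.98% lower and 8.04% higher, and the 1 theca marker called higher is near the latter. The call of TCF21 ended without cow A (adjusted p = 0.168), B (0.137), D (0.110) or G (0.0986), and without cow B 5 theca markers were called lower. The summed theca level was 15.66 to 15.90 in theca after LH and 16.12 to 16.37 in theca before LH, and 12.30 to 14.08 in antral granulosa after LH and 12.86 to 13.62 in antral granulosa before LH. HSD3B1, a member of this list, weighs heavily in the antral sums. It read 12.66, 11.34 and 13.42 in antral granulosa after LH and 12.51, 12.47 and 13.34 before LH. Theca was below antral granulosa for HSD3B1 at both times (mean gaps -1.06 after and -0.97 before LH). The antral sums therefore do not measure theca RNA alone. The antral array of cow C was high for COL1A2 (9.32), INSL3 (11.08, against 9.28 and 10.24 in cows A and B) and STAR (11.32, against 7.77 and 5.41). It was not high for CYP17A1 (4.78, against 5.65 and 5.06). Of 11 smooth muscle and pericyte markers MCAM (2.21 ± 0.43) was called higher and TAGLN (-2.01 ± 0.58, or -1.57 at the limit) lower, each near the share over all genes. With every value under 4.62 raised to it, TAGLN was not called (-1.57, adjusted p = 0.226). TAGLN lost its call without cow A (-2.11, adjusted p = 0.101), C (-1.38, adjusted p = 0.0606), D (-2.24, adjusted p = 0.0650), F (-2.10, adjusted p = 0.0878) or G (-1.69, adjusted p = 0.183), and without cow B 2 markers of this list were called lower. The part of theca and muscle RNA on antral arrays in the results was not tested.

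For antral and membrane-associated granulosa the same fit called no probe set (0% of 24016, with 2236 at an unadjusted p under 0.05, and 3 called by limma with cow as a random block). In membrane-associated granulosa the LH effect was 6.37 for CAV1, 5.91 for CLDN11, -4.77 for CCND2 and -3.35 for BIRC5, against 8.71, 8.21, -6.36 and -4.22 in antral granulosa. A p that misses the threshold does not show that the 2 granulosa populations responded alike.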

How the data were processed

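RNA of theca, antral and membrane-associated granulosa from 6 cows was measured on 18 Affymetrix arrays with biotin-labelled targets. The authors deposited 1 log2 value for each probe set and array, made with RMA in Partek 6.5 per the submitters' processing notes, whose settings are not given in the sources used here. They were used unchanged. RMA normalizes arrays to each other, so a change shared by most transcripts would not show. The number of arrays limits the precision. No sequence of these genes was used.

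Probe sets were named from the platform annotation, which can be old: 13292 carry 1 symbol, 86 several and 10638 none. Of those with 1 symbol 13263 matched the RefSeq table. For a gene with several probe sets the brightest on average stands for it. Other probe sets that disagreed in the call are given where their mean lay above the dim limit. Most of those below it, such as those of BHLHE40 and TGFBR2, are not given. Fits used limma 3.58.1 in R 4.3.3 (lmFit, eBayes). The LH response difference and the gaps were fitted on all 18 arrays with cow as a fixed block, which leaves 8 residual degrees of freedom. LH effects compare different cows, without a block (12 degrees of freedom). The block pairs populations of the same animal: after removing group means, theca and antral arrays of a cow correlated at 0.34 (A), 0.32 (B), 0.43 (C), -0.02 (D), 0.21 (F) and 0.16 (G).

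The design, the 22 pathway and 8 marker lists (516 of 650 listed genes measured) and the named genes were chosen with earlier results of these data known. Named are the 12 largest called differences each way without overlap of cows, in each list up to 4 called members of lowest adjusted p, and 23 genes of follicle function. Of these, 1 gene is not reported here. Other members of the lists were named after their values were seen. The fits were tested on simulated data. Alternatives were quantile normalization, median centring, leaving out or raising dim values, testing 1 probe set per gene, the trend and robust options of eBayes, requiring 2-fold, dropping the 6 membrane arrays, no block or a random one, and omitting each cow in turn. Plots were made in Python 3.11.15 (matplotlib 3.10.9, numpy 2.4.6).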

Additional observations from a re-analysis of the deposited data

Results flagged for a closer look

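The LH response differed between theca and antral granulosa, by the test of the difference itself, for 2698 probe sets. The gene SLC7A5 stands out among the named genes because its LH effect was called in both populations in opposite directions: its LH effect was 2.95 ± 0.29 in theca and -0.96 ± 0.29 in antral granulosa, for a difference of 3.91. The same held for 17 probe sets in all, with TM7SF2, a sterol reductase, at -2.24 in theca and 1.01 in antral granulosa, DDIT4, an inhibitor of mTOR signalling, at 0.93 and -1.96, and TCF7, a WNT transcription factor, at 1.73 and -1.20. These 3 genes were chosen after their values were seen.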

How the results depend on the processing

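Of 2698 probe sets called for the LH response difference (1354 higher, 1344 lower), 1485 (767 and 718) were called with no replicate block, all but 2 of them among the 2698, and 1506 (812 and 694) when 1 probe set per gene was tested, which tests fewer features. Quantile normalization, centring, the filters on dim values, eBayes with trend and robust, the 2-fold minimum, the 12 arrays alone and the random block gave 1833 to 2869. Every probe set called both as reported and under an alternative kept its direction. Leaving out 1 cow gave 1753 to 2401 (823 to 1280 higher, 920 to 1196 lower). The LH effect in theca was called for 439 to 1016 probe sets with a cow left out and for 514 with theca arrays alone, against 941, and that in antral granulosa for 3932 to 5791, against 5391. Of 94 named genes called, 61 kept the call under every alternative. Calls that ended without the block but held with each cow left out were those of BHLHE40 (adjusted p = 0.128), ADAMTS4 (0.0576), VEGFA (0.109), FDX1 (0.159), ID2 (0.347), IER2 (0.328), TXN (0.213), VEGFC (0.374), HSPA5 (0.124) and IGFBP7 (0.0512). With cow as a random block, ID2 (0.146), IER2 (0.141), TXN (0.0737) and VEGFC (0.172) also lost theirs. The cause was not tested. With 3 cows per time and different cows at the 2 times, animal and LH are not separated beyond the spread between cows.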
